A study of Mus musculus with 7 samples.

Results

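The genes described here encode 3 activating receptors of natural killer (NK) cells, 4 adaptor chains that carry the signal of such receptors, and a kinase that acts on those chains. They are the receptor genes Ncr1, Fcgr3 and Cd160, the adaptor genes Tyrobp, Hcst, Fcer1g and Cd247, and the kinase gene Syk. The genes were chosen by name for their role, and each was found by matching its Ensembl identifier to its mouse symbol. All 8 were among the 53379 genes of the count table, and all 8 were among the 12161 genes that passed the filter on low counts. RNA was sequenced from NK cells of C57BL/6 mouse spleen, sorted ex vivo as viable C45+ (CD45, as the labels spell it) CD3- Nk1.1+ NKp46+ CD49b+ cells, in 4 Hhex knockout (Hhex KO) samples and 3 Cre control samples. The control genotype is labelled as Cre control, and no other allele or agent is named for either group. What limits these groups as a model, namely the promoter that drives Cre, the deleted Hhex allele, and the age and sex of the mice, was not given in the labels. The comparison asks how loss of Hhex, which encodes a homeobox transcription factor, changes gene expression in NK cells.

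NK cells are innate lymphocytes that kill target cells through a balance of activating and inhibitory receptors. Most activating receptors have short tails that cannot signal, so they assemble in the membrane with small adaptor chains. Adaptors with an immunoreceptor tyrosine-based activation motif (ITAM) are phosphorylated by Src family kinases and then bind the kinases SYK and ZAP70, which start the signals for degranulation and cytokine release. The adaptor DAP10 has no ITAM and instead recruits phosphoinositide 3-kinase.

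Total counts per library ranged from 10589915 to 18456404. The targeted gene, Hhex, was at 93.5 to 96.1 CPM, that is counts per 1000000 of the scaled library, across the Cre control libraries, and at 54.2 to 64.8 CPM across those of Hhex KO (log2 fold change -0.70 ± 0.10 SE, adjusted p = 0.00768 by edgeR's quasi-likelihood test). A count per gene does not tell which exons its reads cover. Without Cre control replicate 1 the adjusted p of Hhex was 0.0516. The summed level of 10 NK cell markers was 15998 to 21066 CPM across the Cre control libraries, and 12653 to 17302 CPM across those of Hhex KO, and 0 of the 10 passed the test by edgeR. Of 8 markers of type 1 innate lymphoid cells, relatives of NK cells, 7 passed the same test as higher in Hhex KO. Of all tested genes, 4.56% passed in either direction and 2.68% as higher in Hhex KO. Markers of other cells were uneven, and each list summed to less than the NK cell markers in every library. The 9 neutrophil markers summed to 25.3 to 68.6 CPM across the Cre control libraries, and 15.3 to 550 CPM across those of Hhex KO, and the 9 macrophage and monocyte markers to 46.4 to 136 and 13.2 to 262 CPM, with both highest in Hhex KO replicate 2. The 6 B cell markers summed to 2.54 to 5.40 CPM across the Cre control libraries, and 4.69 to 41.3 CPM across those of Hhex KO, highest in Hhex KO replicate 1. Only 2 of them were tested, and 1 passed as higher in Hhex KO. T cell markers, 9 genes, summed to 55.2 to 83.0 CPM and 77.7 to 149 CPM. The 8 dendritic cell markers reached 61.8 CPM in Cre control and 164 CPM in Hhex KO replicate 1. No marker of these lists was at 0 in every library. Hhex KO replicate 4 carries the sample number 95 in the labels, and the other libraries carry numbers from 20 to 28. In such bulk samples, a smaller share of cells that express a gene and less RNA per cell cannot be told apart.

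Of the receptor genes, Ncr1 and Fcgr3 had overlapping groups, whereas the Cd160 level was above all Cre control libraries in every Hhex KO library. Each change is given as log2FC, the log2 fold change of Hhex KO over Cre control (n = 4 and n = 3), with its standard error (SE). The adjusted p-values printed are Benjamini-Hochberg values of edgeR's quasi-likelihood test over all 12161 genes, called below 0.05. Over all genes, 4.56% were called, 2.68% higher and 1.87% lower in Hhex KO, and 19.3% had groups that did not overlap in CPM, 9.37% with Hhex KO above and 9.98% with Hhex KO below.

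Ncr1 (ENSMUSG00000062524, GRCm38 chromosome 7, 4337724 to 4345164) encodes NKp46, a natural cytotoxicity receptor that pairs with FcRγ and CD3ζ. NKp46 protein was part of the sort gate, so the level of its transcript was measured in cells selected for the product. Ncr1 was at 1035, 927 and 834 CPM across Cre control libraries, in the order of replicates 1 to 3, and at 791, 795, 924 and 1004 CPM across those of Hhex KO, in the order 1 to 4. Hhex KO replicates 1 and 2 lay below all controls, and replicates 3 and 4 among them. Its log2FC was -0.09 ± 0.15 (adjusted p = 0.838), with a 95% interval of -0.41 to 0.24. Leaving out 1 library at a time moved it between -0.16 (without Hhex KO replicate 4) and -0.01 (without Cre control replicate 1).

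Fcgr3 (ENSMUSG00000059498, chromosome 1, 171051174 to 171064935) encodes the low-affinity receptor FcγRIII, or CD16, which lets NK cells kill cells coated with antibody. Its level was 99.4, 108 and 92.2 CPM across the Cre control libraries, and 97.1, 124, 116 and 119 CPM across those of Hhex KO. Hhex KO replicates 2, 3 and 4 were above all controls, and replicate 1 was among them. The log2FC was 0.19 ± 0.12 (adjusted p = 0.463, 95% interval -0.08 to 0.47). Macrophages and neutrophils also express this receptor, and their markers were highest in Hhex KO replicate 2, where Fcgr3 was highest. Without that library the log2FC was 0.15 (adjusted p = 0.657), within a range of 0.14 (without Cre control replicate 3) to 0.26 (without Hhex KO replicate 1) over the libraries left out, and the part of these markers in the result was not tested.

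Fcgr3 lies in a cluster with Fcgr2b, which encodes the inhibitory receptor FcγRIIB. The coding sequences share long stretches, so short reads from the shared part cannot be assigned to either gene. Of 1733 windows of 75 bases, the read length, in the Fcgr3 transcripts, 94 (5.42%) also occurred in transcripts of Fcgr2b. The longest identical run of the principal transcripts was 129 bases, inside the coding sequence of both genes. It is shown as the longest of the stretches whose reads cannot be told apart between the pair (GENCODE M21, from the minus strand of chromosome 1, at bases 313 to 441 of the Fcgr3 transcript).
Fcgr3 and Fcgr2b: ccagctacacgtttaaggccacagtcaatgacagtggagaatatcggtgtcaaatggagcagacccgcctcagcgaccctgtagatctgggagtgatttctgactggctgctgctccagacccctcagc
Fcgr2b was at 73.4, 45.3 and 47.8 CPM across the Cre control libraries, and 44.6, 41.5, 23.6 and 52.5 CPM across those of Hhex KO. These groups overlapped as well, with a log2FC of -0.45 ± 0.27 (adjusted p = 0.437, 95% interval -1.08 to 0.17). That value was -0.21 without Cre control replicate 1, the highest library, and -0.26 without Hhex KO replicate 3, the lowest. With the counts of both genes added together, the log2FC was -0.01 (adjusted p = 0.985), against 0.19 for Fcgr3 alone.

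Cd160 (ENSMUSG00000038304, chromosome 3, 96798763 to 96829351) encodes an immunoglobulin-like receptor with a lipid anchor, found on NK cells, innate lymphoid cells and some T cells, that binds the TNF receptor family member HVEM. It was at 124, 141 and 117 CPM across the Cre control libraries, and at 170, 208, 256 and 167 CPM across those of Hhex KO. All 4 Hhex KO libraries lay above the highest control, and Hhex KO replicate 3 stood highest. The mean was 127 ± 12.4 CPM (SD, n = 3) against 200 ± 41.2 CPM (SD, n = 4), a log2FC of 0.66 ± 0.17 with a 95% interval of 0.27 to 1.04. This did not pass the threshold by edgeR (adjusted p = 0.0676, unadjusted p = 0.0040). Beside it, 9.37% of all tested genes were separated in this direction. Under 5 of 15 alternatives Cd160 did pass, with adjusted p = 0.00511 by DESeq2, 0.00407 by limma-voom with sample quality weights, 0.0317 with no filter on low counts and 0.0342 without Hhex KO replicate 4 among them. Over all genes these named alternatives called 1094, 2859, 614 and 818, in the same order, against 554 in the main fit. Its direction was the same under all 15, at log2FC values of 0.52 to 0.79 and adjusted p from 0.00407 to 0.249. Markers of type 1 innate lymphoid cells, a cell type in which Cd160 is also expressed, summed to 139 to 192 CPM across the Cre control libraries, and 509 to 734 CPM across those of Hhex KO, and were highest in Hhex KO replicate 3, as Cd160 was. The CD49b+ gate of the sort selects against these cells. The NK cell marker Eomes overlapped between Cre control and Hhex KO (740 to 843 and 711 to 801 CPM). So did Itga2, which encodes CD49b (380 to 543 and 423 to 512 CPM). Gzmb, of the same list, did not overlap (986 to 1245 and 696 to 867 CPM). Itga1, of the markers of type 1 innate lymphoid cells, was at 7.30 to 9.67 and 39.2 to 64.3 CPM. The part of type 1 innate lymphoid cells in the level of Cd160 was not tested.

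**Figure D1:**
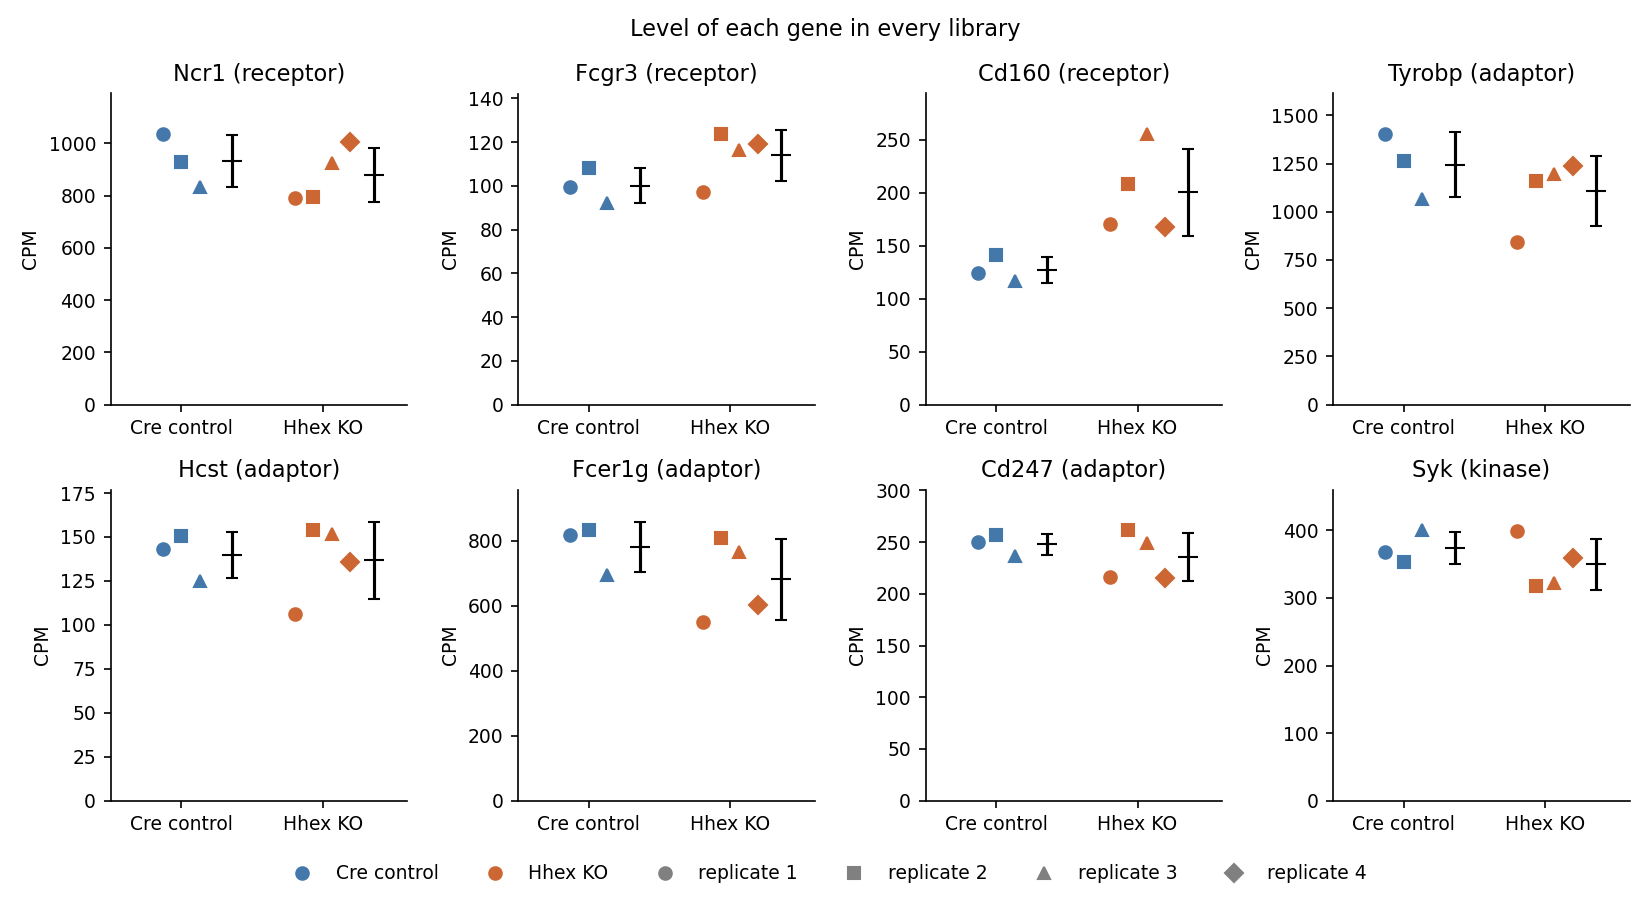
CPM of each of the 8 genes (vertical axis from 0, different scale in each panel) in 3 Cre control and 4 Hhex KO libraries, with symbols for the replicate number and the mean ± SD in black. The groups overlap for 7 genes, and for Cd160 the Hhex KO libraries, from 167 to 256 CPM, lie above the Cre control libraries, from 117 to 141 CPM.

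None of the 4 adaptor genes passed the test by edgeR (0 at an unadjusted p under 0.05), and in each the groups overlapped. Of all tested genes, 4.56% passed, 18.5% had an unadjusted p under 0.05 by edgeR, and 19.3% had groups that did not overlap. With 4 genes, counts of 0 do not set the adaptors apart from these shares. What sets the adaptors apart from each other is the motif in the tail. ITAM-coding stretches were found by translating the principal transcript of every gene but Hcst and taking a pair of tyrosines, each followed at the +3 position by leucine or isoleucine, with 6 to 12 residues from the end of the first such unit to the second tyrosine. Tyrobp had 1 such stretch, Fcer1g had 1 and Cd247 had 3, while Ncr1, Fcgr3, Cd160 and Syk had 0. In Hcst, searched for it alone, 1 stretch coded for the tyrosine motif that binds phosphoinositide 3-kinase. The stretches are shown 5′ to 3′ along the coding strand (GENCODE M21 transcripts, GRCm38), because they are what makes these chains signal through SYK or through phosphoinositide 3-kinase. Capitals mark the tyrosine codons.
Tyrobp: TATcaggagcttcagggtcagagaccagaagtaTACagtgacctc
Fcer1g: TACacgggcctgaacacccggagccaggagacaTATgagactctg
Cd247, the first: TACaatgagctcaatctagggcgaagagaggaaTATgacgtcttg
Cd247, the second: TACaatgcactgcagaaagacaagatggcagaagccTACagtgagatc
Cd247, the third: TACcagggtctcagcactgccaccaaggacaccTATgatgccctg
Hcst: TACatcaacatg
The Tyrobp stretch covers codons 92 to 106 of 114, the Fcer1g stretch codons 65 to 79 of 86, and the Cd247 stretches lie at codons 72 to 86, 111 to 126 and 142 to 156 of 164. The short Hcst stretch covers codons 72 to 75 of 79.

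Tyrobp (ENSMUSG00000030579, chromosome 7, 30413760 to 30417585, plus strand) encodes DAP12, the ITAM adaptor of activating Ly49 and other lectin-like receptors. It was at 1403, 1264 and 1068 CPM across the Cre control libraries, and at 842, 1159, 1197 and 1236 CPM across those of Hhex KO. Hhex KO replicate 1 was the lowest of all libraries, and the other Hhex KO libraries lay within the range of the controls. This gave a log2FC of -0.17 ± 0.17 (adjusted p = 0.705, 95% interval -0.56 to 0.23). Leaving out 1 library at a time gave -0.06 (without Hhex KO replicate 1) to -0.26 (without Cre control replicate 3).

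Hcst (ENSMUSG00000064109, chromosome 7, 30417712 to 30419854, minus strand) encodes DAP10, the adaptor of the receptor NKG2D. Its 3′ end faces that of Tyrobp across 126 bases, and the annotated exons of the genes do not overlap. Its level was 143, 150 and 125 CPM across the Cre control libraries, and 106, 154, 151 and 136 CPM across those of Hhex KO. Again Hhex KO replicate 1 was lowest, and replicates 2 and 3 were just above the highest control. The log2FC was -0.03 ± 0.15 (adjusted p = 0.954), with a 95% interval of -0.37 to 0.31, and ran from -0.10 (without Cre control replicate 3) to 0.07 (without Hhex KO replicate 1) over the libraries left out.

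Fcer1g (ENSMUSG00000058715, chromosome 1, 171229572 to 171234365) encodes FcRγ, the chain shared by NKp46, CD16 and many Fc receptors of myeloid cells. It was at 819, 834 and 694 CPM across the Cre control libraries, and at 549, 809, 766 and 604 CPM across those of Hhex KO. Replicates 1 and 4 of Hhex KO lay below all controls and replicates 2 and 3 among them. The resulting log2FC was -0.20 ± 0.17 (adjusted p = 0.620, 95% interval -0.58 to 0.19). Without Hhex KO replicate 2, the library with the most neutrophil and macrophage marker reads, it was -0.29 (adjusted p = 0.478), and the part of these markers in the level was not tested. Without Hhex KO replicate 1 it was -0.11 (adjusted p = 0.763), and these were the ends of the range over the libraries left out.

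Cd247 (ENSMUSG00000005763, chromosome 1, 165788681 to 165877277) encodes CD3ζ, which serves the T cell receptor in T cells and NKp46 in NK cells. It varied the least of the 4 adaptors within each group, at 250, 257 and 237 CPM across the Cre control libraries, and 216, 262, 249 and 215 CPM across those of Hhex KO. Hhex KO replicates 1 and 4 were below the controls and replicate 2 above. The T cell markers also summed highest in Hhex KO replicate 2 (149 CPM). Their sums in Hhex KO replicates 1 (107 CPM) and 3 (129 CPM) were above all controls too (55.2 to 83.0 CPM). In Hhex KO replicate 2, Cd3d, Cd3g, Cd3e and Trac were at 21.7 to 57.2 CPM, and the other markers of that list at 0.115 to 2.46 CPM. The CD3- gate of the sort selects against T cells, and their part in the level of Cd247 was not tested. With all libraries the log2FC was -0.08 ± 0.12 (adjusted p = 0.825, 95% interval -0.34 to 0.19). Leaving out 1 library at a time gave -0.13 (without Hhex KO replicate 2) to -0.04 (without Hhex KO replicate 4). Of the 5329 exonic bases annotated for Cd247, 3213 (60.3%) also lie in exons of other genes, 3007 of them in Pou2f1 on the opposite strand. With the strand setting of the counting not given in the sources used here, part of the Cd247 reads may have been counted elsewhere or left out. Pou2f1 itself had a log2FC of -0.07 ± 0.24 (adjusted p = 0.923).

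Syk (ENSMUSG00000021457, chromosome 13, 52583173 to 52648792) encodes the tyrosine kinase that binds phosphorylated ITAMs, and Zap70 encodes its relative, which NK cells share with T cells. Syk was at 369, 353 and 400 CPM across the Cre control libraries, and at 399, 318, 322 and 358 CPM across those of Hhex KO. Hhex KO replicates 2 and 3 were below all controls, while replicate 1, the lowest library for 5 of the other genes within its group, was the highest of its group for Syk. For Syk the log2FC was -0.10 ± 0.13 (adjusted p = 0.775, 95% interval -0.38 to 0.19), between -0.17 (without Hhex KO replicate 1) and -0.04 (without Cre control replicate 3) over the libraries left out. Zap70 was at 227, 248 and 229 CPM across the Cre control libraries, and at 235, 270, 286 and 243 CPM across those of Hhex KO, with a log2FC of 0.14 ± 0.12 (adjusted p = 0.603, 95% interval -0.12 to 0.41) and 0.09 without Hhex KO replicate 3.

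Across the 8 genes, 0 passed 0.05 by edgeR, against 4.56% of all tested genes, and 1, Cd160, had an unadjusted p under 0.05, against 18.5%. By DESeq2 and by limma-voom with sample quality weights 1 passed, again Cd160. Over all genes these tools called 1094 and 2859, against 554 by edgeR. The median log2FC was -0.08, beside 0.02 for all tested genes, and 5 of the 8 values lay within the middle range of all genes (the quartiles, -0.16 to 0.23). The 95% interval of the log2FC included 0 for 7 of the 8. For those 7 genes the lower bounds were between -0.58 and -0.08 and the upper bounds between 0.19 and 0.47. Counts of these genes ran from 1230 to 20313 per library. Counting error alone is 2.85% at the lowest of these, below the spread between libraries, which was 4.14% to 13.5% of the mean in Cre control and 9.97% to 20.6% in Hhex KO.

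**Figure D2:**
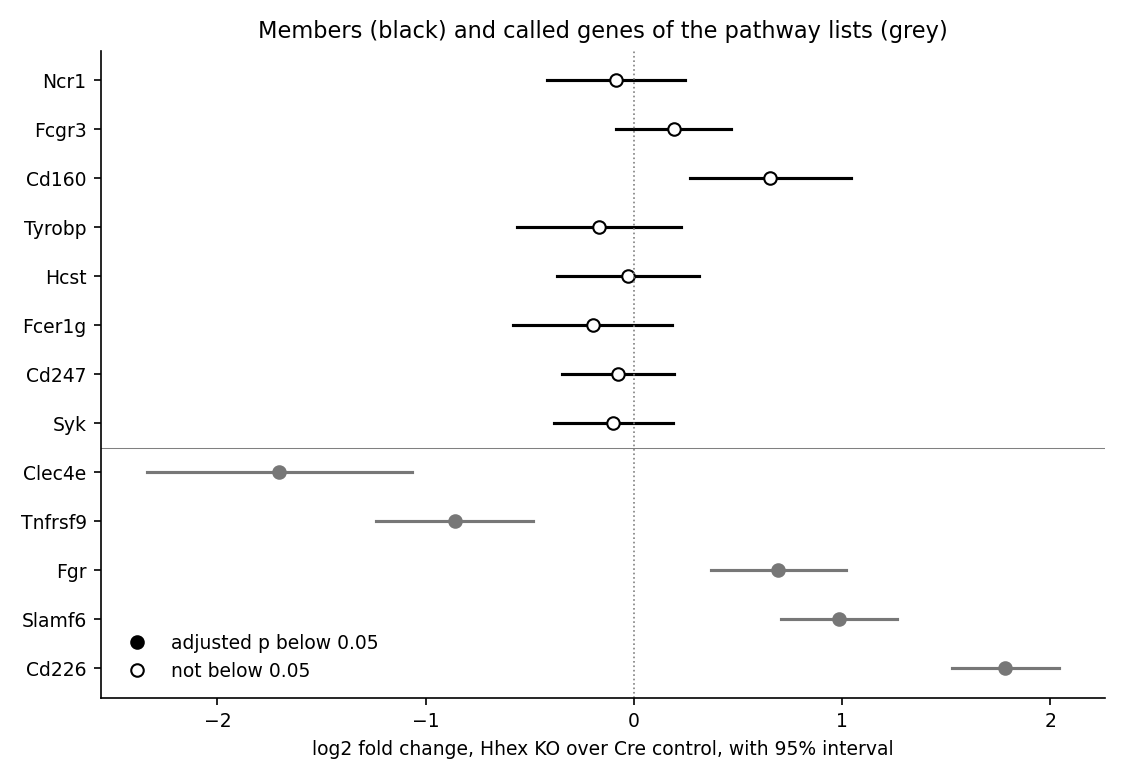
Log2FC (horizontal axis) with its 95% interval for the 8 genes, in black, and for the 5 genes of the pathway lists that passed 0.05, in grey. Filled points passed the threshold and open points did not; the interval of Cd160, from 0.27 to 1.04, is the only black one that leaves out 0.

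Compared per kilobase of exon (CPM per 1000 exonic bases, RPKM), the levels of the genes were far apart, and several were among the most abundant transcripts of these cells. Tyrobp was at 1866 ± 252 RPKM (SD, n = 3) in Cre control and ranked 14 of 12150 genes with a length. Fcer1g was at 895 ± 88.1 RPKM and ranked 27, and Ncr1 was at 605 ± 65.2 RPKM and ranked 54. These genes and Hcst, at 193 ± 18.1 RPKM, had control ranges that did not overlap with each other. Fcgr3 followed at 57.6 ± 4.61 RPKM, Cd160 at 48.2 ± 4.71, Cd247 at 46.5 ± 1.93 and Syk at 40.0 ± 2.56. Among the controls, the level of Cd160 could not be separated from that of Fcgr3 (44.2 to 53.4 against 53.1 to 62.3 RPKM) or of Cd247 (44.4 to 48.2 RPKM). The place of Cd247 depends on the length used. With all its reads divided by only the 2116 exonic bases shared with no other gene, it came to 117 RPKM. Reads over those bases alone were not counted. In Hhex KO the order was the same, apart from Cd160, at 75.9 ± 15.6 RPKM (SD, n = 4), whose mean lay above that of Fcgr3, at 65.7 ± 6.74 RPKM, with ranges that overlapped. The inhibitory Fcgr2b was at 9.59 ± 2.68 RPKM in Cre control. Together the 8 genes took 0.357% to 0.424% of the scaled library in Cre control and 0.317% to 0.398% in Hhex KO.

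**Figure D3:**
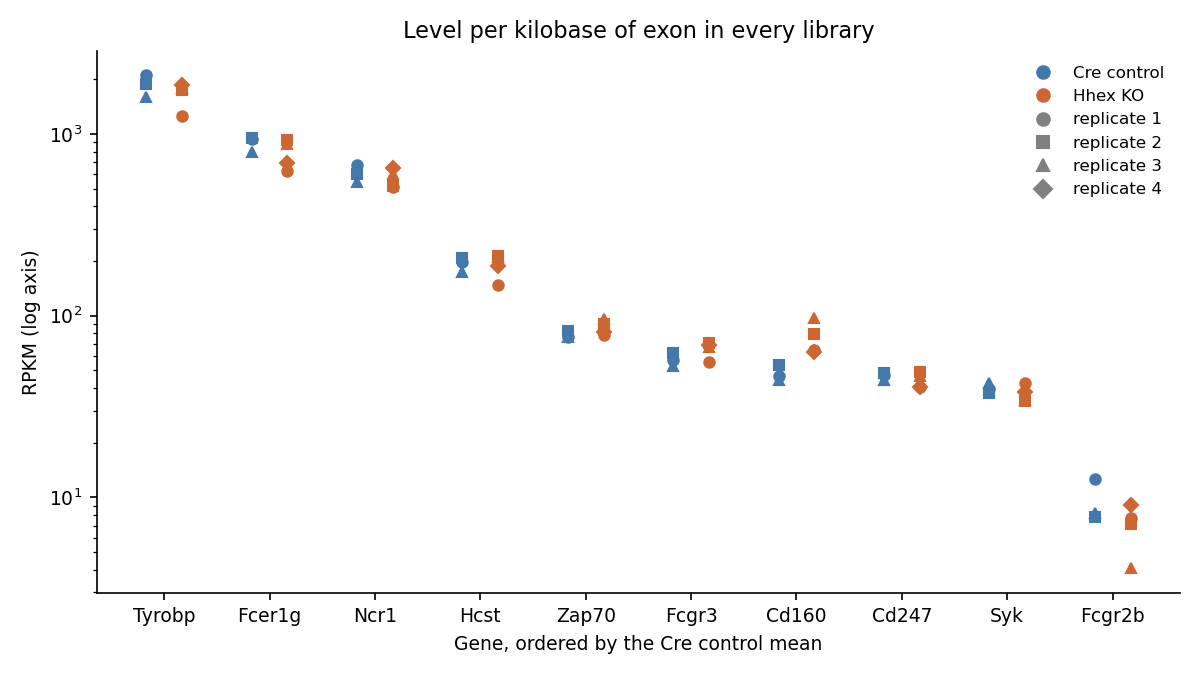
RPKM on a log axis for the 8 genes with Zap70 and Fcgr2b, ordered by the Cre control mean, with 1 symbol per library. Tyrobp, Fcer1g and Ncr1 stand at 514 RPKM or above in every library, and Cd160 is the gene whose Hhex KO libraries sit above the controls.

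Partners that serve a common receptor or the same motif were compared as ratios within each library, which do not depend on how libraries are scaled. The log2 ratio of Fcer1g to Cd247 per exonic length was 4.32, 4.31 and 4.16 for the Cre control libraries and 3.95, 4.24, 4.23 and 4.10 in Hhex KO. Its level rests on all 5329 exonic bases of Cd247, and another length would move every library alike. The groups overlapped, with means of 4.26 and 4.13 (difference -0.13, exact two-sided permutation test, p = 0.2). For Tyrobp to Hcst the log2 ratio was 3.40, 3.19 and 3.21 for the Cre control libraries and 3.10, 3.03, 3.10 and 3.30 in Hhex KO. Only Hhex KO replicate 4 reached the range of the controls (difference -0.13, exact permutation p = 0.286). For Syk to Zap70 it was -0.95, -1.13 and -0.84 for the Cre control libraries and -0.88, -1.41, -1.48 and -1.09 in Hhex KO. Hhex KO replicates 2 and 3 lay below the controls and the other replicates among them (difference -0.24, exact permutation p = 0.286). Adjusted over the 3 ratios, each exact permutation p was 0.286. The smallest p that 35 splits of 7 libraries can give is 0.0286. After adjustment over the 3 ratios, a ratio at that p falls below 0.05 only if another ratio is at that p as well.

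**Figure D4:**
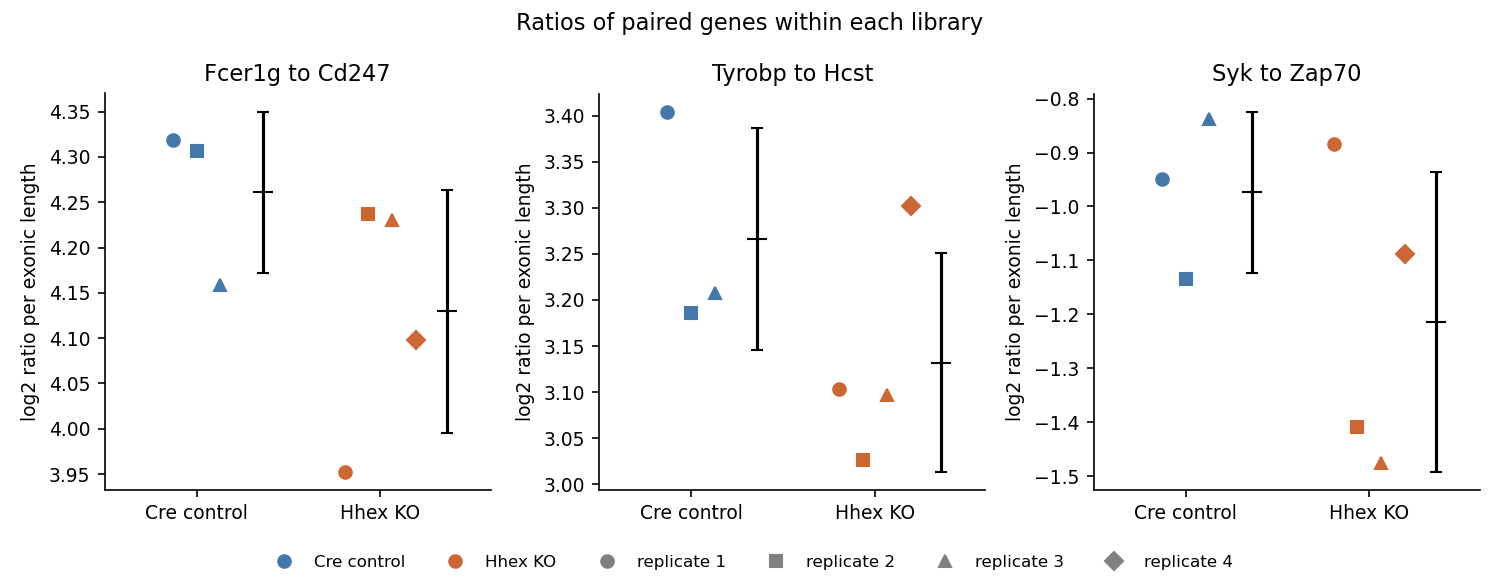
Log2 ratio per exonic length of Fcer1g to Cd247, Tyrobp to Hcst and Syk to Zap70 in every library (vertical axis, different scale in each panel, not from 0), with the mean ± SD in black. In all 3 panels the Hhex KO mean is lower than the Cre control mean by 0.13 to 0.24, and the groups overlap.

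Some libraries were low or high for several of the genes at once. Within Cre control, replicate 3 was lowest for 7 of the 8 genes, all but Syk, for which it was highest. Within Hhex KO, replicate 1 was lowest for Ncr1, Fcgr3, Tyrobp, Hcst and Fcer1g and highest for Syk. The highest library exceeded the lowest by 1.09-fold (Cd247) to 1.31-fold (Tyrobp) in Cre control, and by 1.22-fold (Cd247) to 1.53-fold (Cd160) in Hhex KO. Likeness of pattern was measured as the root-mean-square difference of centred log2 CPM over the 7 libraries, among 9776 other genes of sufficient level. Among the 8 genes, the closest pair was Hcst and Fcer1g, at 0.11. The nearest other gene was Fis1 for Hcst (0.02), Anxa2 for Fcer1g (0.02), Rbm27 for Syk (0.02), Scamp3 for Cd247 (0.03), Stard3nl for Tyrobp (0.04), D6Wsu163e for Fcgr3 (0.05) and Tasp1 for Ncr1 (0.05). Such close patterns were common for these 7, with 111 to 793 genes within 0.1. For Cd160 the nearest was Lpcat2 (0.08), and 4 genes lay within 0.1. This difference was not scaled by the spread of each gene, so a gene that varies little can have more genes within 0.1. The SD of log2 CPM over the 7 libraries was 0.12 (Cd247) to 0.24 (Fcer1g) for those 7 genes, and 0.40 for Cd160.

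The rest of the pathway was read from lists of 113 genes, written with earlier results of these data known, of which 93 were tested. Of these, 3 were higher and 2 lower in Hhex KO and 88 did not pass, beside 4.56% called among all tested genes. Their median log2FC was -0.04, beside 0.02 for all tested genes.

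Most calls were among the other activating and costimulatory receptors, where 2 of 24 rose, 1 fell and 21 did not pass (median log2FC -0.11). Cd226, the activating receptor DNAM-1, was at 52.2, 48.7 and 45.8 CPM across the Cre control libraries, and 152, 176, 179 and 167 CPM across those of Hhex KO (log2FC 1.78 ± 0.11, adjusted p = 8.9e-05). Slamf6, a SLAM family receptor, rose, with a control mean of 19.3 ± 2.16 CPM (SD, n = 3) and a knockout mean of 38.2 ± 2.17 CPM (SD, n = 4) and a log2FC of 0.99 ± 0.12 (adjusted p = 0.00395). Tnfrsf9, the costimulatory receptor 4-1BB, was lower, at 128 ± 11.7 CPM (SD, n = 3) and 70.6 ± 14.6 CPM (SD, n = 4), with a log2FC of -0.86 ± 0.17 (adjusted p = 0.0244). Its call was lost without any 1 of the Cre control libraries (adjusted p 0.0717 to 0.107).

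Among 11 tested Src and Syk family kinases and their regulators, 1 rose, 0 fell and 10 did not pass (median 0.01). The member that rose was Fgr, a Src family kinase of myeloid and NK cells, at 37.6, 48.8 and 41.6 CPM across the Cre control libraries, and 67.1, 74.0, 77.2 and 57.6 CPM across those of Hhex KO (log2FC 0.69 ± 0.14, adjusted p = 0.0308). All Hhex KO libraries were above the controls, but the call was lost without any 1 library other than Hhex KO replicate 4 (adjusted p 0.0544 to 0.146). Neutrophils and macrophages express Fgr too, and it was highest in Hhex KO replicate 3, where the neutrophil markers summed to 19.1 CPM and the macrophage and monocyte markers to 27.8 CPM. The part of those cells in the level of Fgr was not tested.

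Of 36 tested downstream adaptors, phospholipases and exchange factors, 0 passed by edgeR (2 at an unadjusted p under 0.05), with a median log2FC of -0.04. Of all tested genes, 4.56% passed and 18.5% had an unadjusted p under 0.05 by edgeR. Those with the smallest p were Sh2d1b2, which encodes an adaptor of SLAM family receptors (-1.53 ± 0.40, adjusted p = 0.0694, at 0.531 to 4.22 CPM), and Bcl10, part of the complex that leads to NF-κB (-0.40 ± 0.14, adjusted p = 0.164). Sh2d1b2 passed by limma-voom with sample quality weights, by DESeq2 and with no filter (adjusted p 0.0207 to 0.0396). Of 18 negative regulators 0 passed by edgeR (3 at an unadjusted p under 0.05, beside the same 18.5% of all tested genes), with a median of 0.00. Sla, which encodes an adaptor that limits antigen receptor signals, had a log2FC of 0.34 ± 0.12 (adjusted p = 0.153), and Nedd4, a ubiquitin ligase, 0.41 ± 0.16 (adjusted p = 0.202). Sla passed by DESeq2 (adjusted p = 0.0158) and with the sample quality weights of limma-voom (0.0142). Nedd4 passed with those weights (0.0120) and without Hhex KO replicate 4 (0.0453). Over all genes, 1094 passed by DESeq2, 2859 with the weights, 614 with no filter and 818 without Hhex KO replicate 4, against 554 in the main fit.

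Of the 8 other Fc receptor genes only Fcgr2b and Fcgrt, the neonatal Fc receptor gene, were tested, and neither passed. Fcgrt was at 0.531 to 2.81 CPM (log2FC 0.19 ± 0.56, adjusted p = 0.917), with a log2FC of -0.35 without Hhex KO replicate 2. The other activating Fcγ receptor genes had few reads, with counts of 1 to 14 per library for Fcgr4 and 0 to 29 for Fcgr1, against 1230 to 2159 for Fcgr3. Of 14 myeloid receptors that pair with DAP12 or FcRγ, 12 had too few counts to be tested. Clec4e, the lectin receptor Mincle, was lower, at 8.77, 6.69 and 5.62 CPM across the Cre control libraries, and 1.62, 2.86, 1.65 and 2.48 CPM across those of Hhex KO (log2FC -1.70 ± 0.28, adjusted p = 0.0127). The call was lost without Cre control replicate 1 (adjusted p = 0.0767). Macrophages and neutrophils express it, the summed levels of their markers overlapped between the groups, and the part of those cells in the level of Clec4e was not tested.

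**Figure D5:**
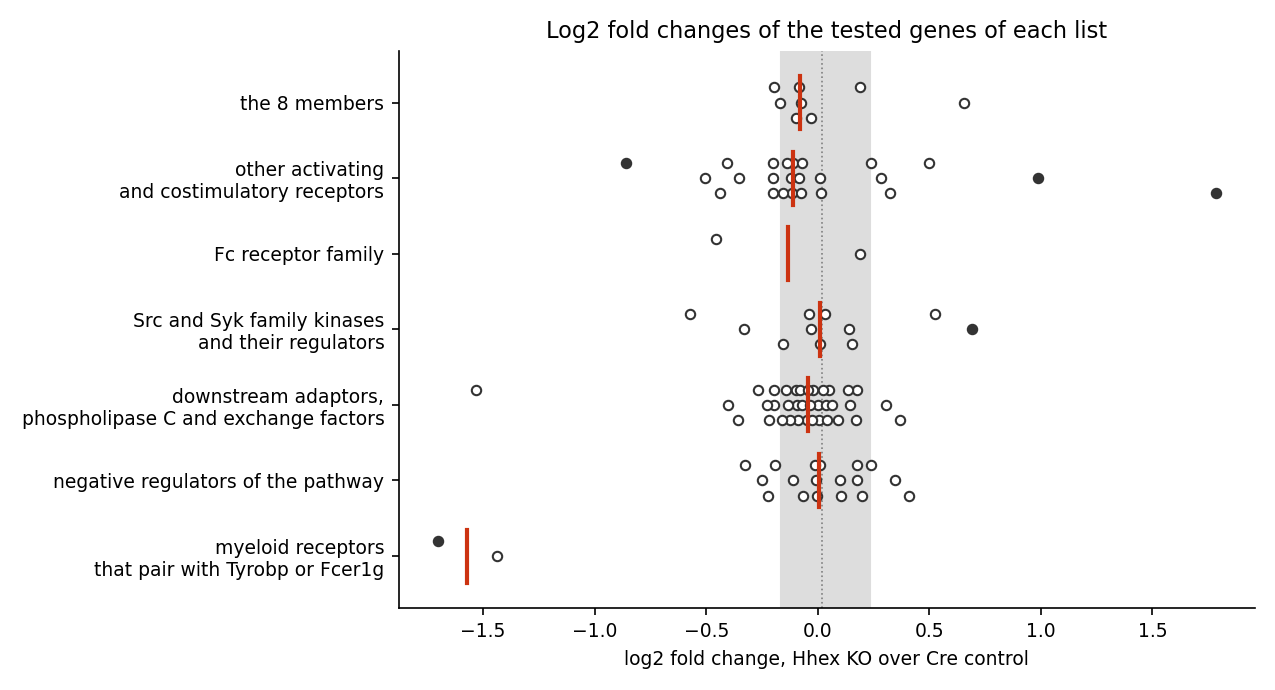
Log2FC of each tested gene (points, filled where the adjusted p is below 0.05) for the 8 genes and each pathway list, with the median in red and the quartiles of all 12161 tested genes as a grey band. The medians of the lists lie between -0.13 and 0.01, apart from the myeloid receptors, with 2 tested genes and a median of -1.57.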

How the data were processed

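The authors deposited 1 table of raw counts, not normalized, with genes in rows and 7 libraries in columns. Per the submitters' processing notes, STAR, featureCounts and the mm10 build were used; versions, annotation release and strand setting were all not given in the sources used here. Per the labels' protocols, directional libraries were read as single ends of 75 bases. No row was without a gene, and 99.8% of identifiers matched the gene name table.

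Genes were filtered by expression (minimum count 10, minimum total 15), scaled by TMM and tested with the quasi-likelihood test of edgeR 4.0.16 in R 4.3.3, without covariates. CPM use the scaled library size, RPKM the union of GENCODE M21 exons. Alternatives used DESeq2 1.42.0 and limma 3.58.1. The procedure was also run on simulated data, in which the libraries of a group varied independently, and no result given here rests on that run. Replicate pairs differed by 15.4 to 17.4 chi-square units per degree of freedom in Cre control and 11.0 to 78.3 in Hhex KO, so each library counts once. Within Hhex KO, replicates 2 and 3 (11.0) and replicates 1 and 4 (28.0) were closest, and all other pairs were at 69.9 to 78.3. What sets these pairs of libraries apart was not tested. The labels call them biological replicates without naming animals, so p-values measure only how these samples spread, which may be technical.

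The genes and lists were chosen with earlier results of these data known. Named are the 8 genes, Hhex, Zap70, Fcgr2b, the nearest pattern of each, and from each list the called genes or, where there were none, the 2 with the smallest p. Fcgr1, Fcgr4 and Pou2f1 were named after their values were seen.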

Additional observations from a re-analysis of the deposited data

Results flagged for a closer look

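Of 33 values examined over the 4 Hhex KO libraries, 3 had a library far from the others, where chance alone flags about 1 in 20. The summed level of B cell markers in Hhex KO replicate 1 was 41.3 CPM, against 4.69 to 10.5 CPM for the rest of its group. That of macrophage and monocyte markers in Hhex KO replicate 2 was 262 CPM, against 13.2 to 54.4 CPM, and that of neutrophil markers in the same library was 550 CPM, against 15.3 to 97.5 CPM. None of the CPM values of the 8 receptor, adaptor and kinase genes and none of their 3 ratios stood apart by this measure.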

How the results depend on the processing

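The alternatives were other scalings, filters and tools, leaving out each library in turn, and a replicate block (libraries 1 to 3 of each group). Of the 8 genes, 0 passed by edgeR, and 1 (Cd160) passed with the replicate block, no filter, DESeq2 and limma-voom with quality weights per sample, with 0 to 1 when libraries were left out. The count over all genes, 554, was 369 with the stricter filter, which tests fewer genes, 1094 with DESeq2 and 2859 with the quality weights. Leaving out 1 library gave 141 to 818, with 141, 235 and 152 without Cre control replicates 1, 2 and 3 and 297 without Hhex KO replicate 3. The pathway count, 5, was 10 with DESeq2, 20 with the quality weights and 2 to 6 when a library was left out (2 without Cre control replicate 1, 3 without replicate 2 or 3). What moved these counts was not tested.

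The log2 fold change turned its sign for Hcst with the quality weights (0.091) and when Cre control replicate 2 (0.027) or Hhex KO replicate 1 (0.070) was left out, with a range of -0.10 to 0.070 over the libraries left out. It did so for Cd247 with the quality weights (0.012), for Fcgr3 when summed with Fcgr2b (-0.0079), and for Fcgrt without Hhex KO replicate 2, with a range of -0.35 to 0.50 over the libraries left out. None of these passed the test. The 3 ratios kept their direction under 9 alternatives each. With a library left out or with the replicate block no exact p can fall below the threshold, so the calls of the ratios say nothing there. Same-numbered libraries did not deviate together in every pair (correlations of 0.16, 0.70 and -0.35 over 7557 genes). Differently numbered libraries ran from -0.64 to 0.75. Deviations within a small group are tied to each other, so these values cannot tell whether the numbers pair the libraries. The replicate block called 774 genes by edgeR, among them Cd160 (adjusted p = 0.0452) and Nedd4 (adjusted p = 0.0433). Depth limits genes near 1 CPM, such as Fcgrt and Sh2d1b2, more than the 8 genes.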
